A study of Homo sapiens with 6 samples.

Results

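The genes described here are 38 genes of the endoplasmic reticulum (ER): its unfolded protein sensors, its chaperones and disulfide isomerases, its degradation machinery and the channel through which proteins enter it. They were taken by gene symbol from a list, and all 38 were found, 1 row each, among the 58735 genes of the deposited table. RNA sequencing was done on SKM-1 cells, a human myeloid leukaemia line, kept for 48 h with celastrol (3 libraries) or with DMSO (3 libraries). Celastrol is a triterpenoid of the thunder god vine, and DMSO, a solvent, was the control. The labels name no dose for the drug, and they do not say whether replicates were grown apart. The p-values then reflect variation among these 6 libraries only, part of which may be technical.

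Secreted and membrane proteins enter the ER through the SEC61 channel, fold there with chaperones and disulfide isomerases, and are sent back to the cytosol for destruction by the proteasome when folding fails, a route called ER-associated degradation (ERAD). When unfolded proteins build up, the membrane sensors IRE1 (gene ERN1), ATF6 and PERK start the unfolded protein response. IRE1 splices the mRNA of the transcription factor XBP1, ATF6 is cut into a transcription factor, and both raise chaperone and ERAD genes. Many of those genes carry the ER stress response element (ERSE) in their promoters, which was first defined in ER chaperone genes.

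The largest decreases with celastrol were in the ERAD gene HERPUD1 and the chaperones HSPA5 (BiP) and CALR, and genes of the sensors and chaperones made up 8 of the 13 that fell. SEC61B of the entry channel, the oxidase ERO1A and 2 ERAD genes rose. Of 37 members tested, 13 were called lower and 4 higher at an adjusted p under 0.05 (limma-trend on log2 FPKM, Benjamini-Hochberg over 12685 genes). Over all genes tested, 14.2% were called lower and 15.3% higher. The 13 lower genes were ERN1, XBP1, HSPA5, HYOU1, CALR, CANX, CRELD2, MANF, P4HB, PDIA4, PDIA6, HERPUD1 and SEL1L. The 4 higher genes were ERO1A, DERL1, SELENOS and SEC61B. The members' median log2 fold change was -0.15, beside 0.02 over all genes tested.

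The split between higher and lower genes moved with the scaling. The divisor recovered from the deposited values was 1.04 to 1.05 times the listed reads in the celastrol libraries and 0.963 to 0.994 times in the DMSO libraries, so it differed by treatment and was not the sum of the listed reads. Deposited FPKM (fragments per kilobase of gene, over a divisor for each library) gave 4 higher and 13 lower members, scaling to the reads in the table gave 6 and 9, limma-voom on recovered reads gave 11 and 8, and TPM, which rescales FPKM to the same sum in each library, gave 16 and 6. Quantile normalization gave 5 and 11. Over all genes, 41.5% were higher and 6.41% lower under TPM, 28.8% and 11.5% under limma-voom, 23.8% and 10.2% when scaled to listed reads, and 14.9% and 14.7% under quantile normalization. TPM moved the median of all genes to 0.26, scaling to listed reads moved it to 0.12 and limma-voom also to 0.12. The members' median minus that of all genes was -0.17 under these scalings. TPM and scaling to listed reads move all genes of a library alike, so the gap was bound to stay there. The limma-voom fit also divided by the listed reads, so its gap was bound to stay close. It was -0.07 under quantile normalization, -0.10 without DMSO replicate 1 and -0.12 without celastrol replicate 3. Of the lower calls, 6 held in all 16 alternatives: XBP1, HSPA5, HYOU1, CALR, HERPUD1 and SEL1L. Of the higher calls, SEC61B held in all 16, but narrowly, with a highest adjusted p from limma of 0.0490. Among the lower calls that held, SEL1L came nearest the threshold of 0.05, at 0.0456. Left-out libraries mattered too, for members and for all genes. Lower calls among members came to 8 without celastrol replicate 1, 7 without celastrol replicate 2 and 7 without DMSO replicate 3. The shares of all genes called lower in those fits were 11.3%, 8.97% and 7.9%. Higher calls among members came to 1 without DMSO replicate 3, where 8.98% of all genes were called higher.

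**Figure D1:**
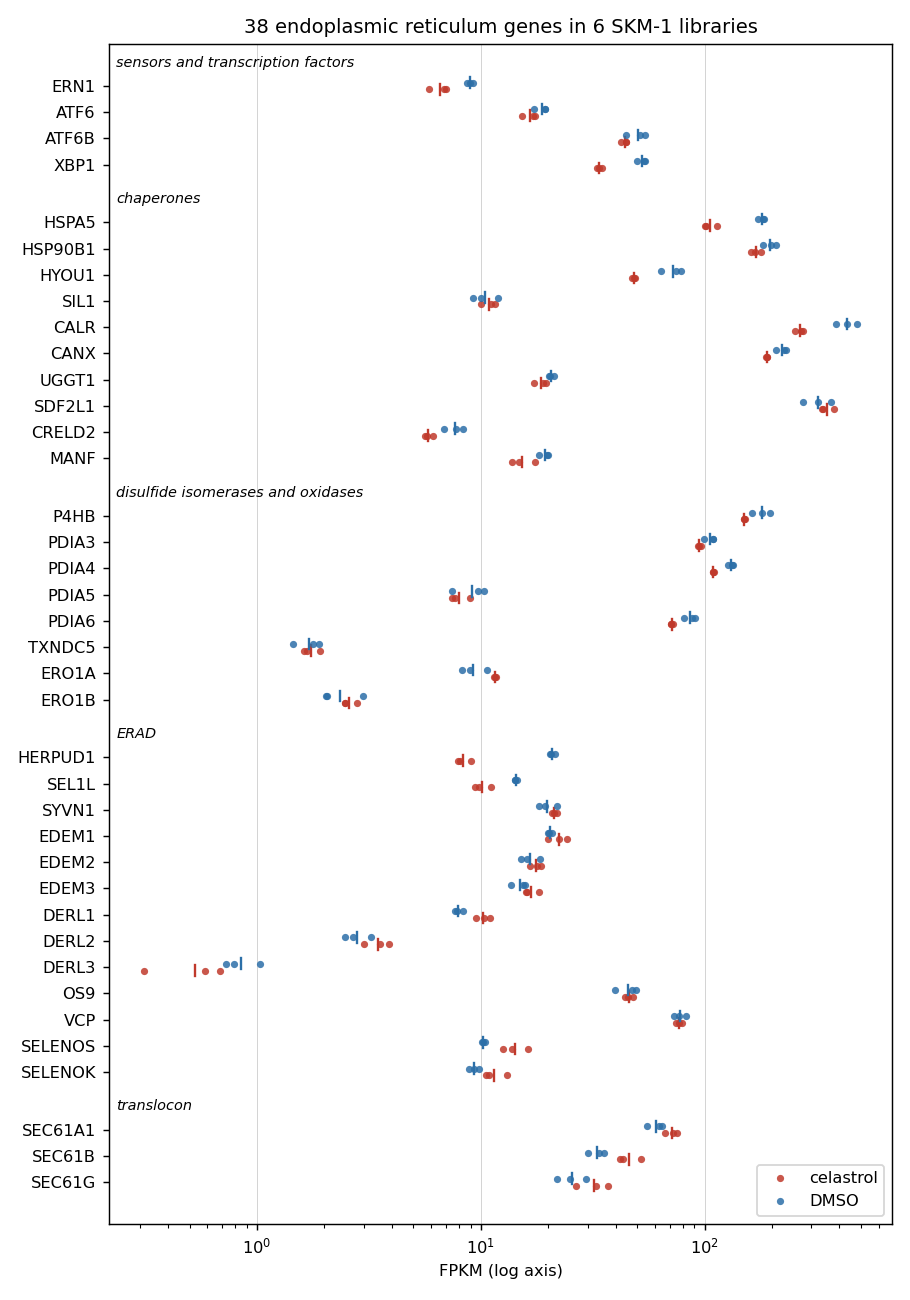
FPKM of the 38 genes in each library on a log axis, grouped by role; dots are single libraries and ticks are the means of 3. The widest gap is at HERPUD1, with 7.93 to 9.05 FPKM with celastrol (red) and 20.3 to 21.6 with DMSO (blue), and the SEC61 genes lie higher on average with celastrol.

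Depth was similar, at 15231742 to 16231066 reads per celastrol library and 13549187 to 15410904 per DMSO library. Reads on the 38 genes were 0.886 ± 0.0157% of a celastrol library and 0.988 ± 0.0161% of a DMSO library (SD, n = 3 each). Mitochondrial reads also moved with treatment, at 1.54 ± 0.271% with celastrol and 5.52 ± 0.113% with DMSO (SD, n = 3). When values were scaled to reads outside the mitochondrial chromosome, a choice made after the data were seen, 6 members were higher and 12 lower, beside 18.5% and 12.5% of all genes. DMSO replicate 2 was the lowest DMSO library for 24 of the 38 genes. Fewer cells of a type and less RNA per cell cannot be told apart in such samples.

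Marker genes did not all follow the label. In the list of 16 myeloid and monocyte markers, CD34 and HLA-DRA were at 0 reads in all 6 libraries. CD14, CD4, MPO, CEBPA and CSF1R stayed under 1 FPKM, and CD33 lay between 1.25 and 1.89 FPKM. Other genes of that list were present: LYZ had 16.5 to 18.8 FPKM with celastrol and 36.6 to 39.2 with DMSO. Over all 6 libraries AZU1 had 5.90 to 12.2 FPKM, ITGAM 2.00 to 4.33 and SPI1 15.0 to 24.1. The pan-leukocyte gene PTPRC was present too, at 11.1 to 15.9 FPKM. Erythroid genes were abundant, such as GATA1 at 99.7 to 161 FPKM and RHAG at 247 to 296 FPKM. The summed FPKM of the 14 erythroid and megakaryocyte markers was 688.9 to 757 with celastrol and 828 to 897 with DMSO, with 8 of 12 tested genes lower and GP9 and PF4 at 0. The 16 myeloid markers summed to 51.0 to 55.4 with celastrol against 70.6 to 82.4 FPKM with DMSO, with 3 of 6 tested genes lower. Pan-leukocyte markers summed to 859.8 to 1015 against 609 to 631 FPKM, with 3 of 7 higher and 1 (CD37) lower. Most of that sum was a single gene, LAPTM5, at 582 to 751 FPKM with celastrol and 398 to 408 with DMSO. The 10 lymphoid and plasma cell markers summed to 15.9 to 16.6 against 8.85 to 10.8 FPKM (2 of 3 tested higher, MS4A1 at 0), and the 9 epithelial and stromal ones to 295 to 329.6 against 266 to 304 FPKM (2 of 5 tested higher and 2 lower). Beside these counts, 14.2% of all genes tested were called lower and 15.3% higher. The part of these marker shifts in the ER results was not tested.

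Promoters are shown because the 5 largest decreases were in genes that carry an ERSE or its variant ERSE-II. The search used RefSeq windows on GRCh38.p14, 250 bases before to 50 after each start, on both strands. ERSE was searched as CCAAT and CCACG with 9 bases between them, ERSE-II as ATTGG and CCACG with 1 base between, and the unfolded protein response element (UPRE) as TGACGTGG. Windows were found for 35 of the 38 members. ERSE lay in 8 of those 35 genes (22.9%), against 0.0916% of all 27305 genes with a window. ERSE-II lay in 3 (8.57%, against 0.0696%), and UPRE in 3 (8.57%, against 0.927%). The members are known ER stress genes and the elements were defined on such genes, so these shares describe the list and test nothing.

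The bases before the start are given for the 5 lower genes of largest change with an element, and for SDF2L1, which has one and was not called. Each stops where GENCODE 29 or RefSeq first places the gene. Capitals mark the fixed letters of each match (ERSE or ERSE-II, read on either strand), and in HYOU1 also the UPRE, which overlaps the first of its pair of ERSE-II matches.
HERPUD1 (chr16:56931892-56932047, plus strand): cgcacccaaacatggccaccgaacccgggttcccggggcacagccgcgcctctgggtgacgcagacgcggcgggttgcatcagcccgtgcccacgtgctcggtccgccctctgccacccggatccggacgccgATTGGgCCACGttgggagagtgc
HSPA5 (chr9:125241344-125241593, minus strand): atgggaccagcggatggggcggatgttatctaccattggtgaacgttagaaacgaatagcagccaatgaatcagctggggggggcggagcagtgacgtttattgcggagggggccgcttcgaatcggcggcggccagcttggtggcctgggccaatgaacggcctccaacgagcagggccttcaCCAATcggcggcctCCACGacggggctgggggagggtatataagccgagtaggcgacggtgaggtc
CALR (chr19:12938359-12938577, plus strand): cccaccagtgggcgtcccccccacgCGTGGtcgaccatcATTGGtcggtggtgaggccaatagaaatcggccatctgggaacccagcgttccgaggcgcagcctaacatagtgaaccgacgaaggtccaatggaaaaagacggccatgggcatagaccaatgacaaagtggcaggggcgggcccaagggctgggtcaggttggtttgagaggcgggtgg
XBP1 (chr22:28800598-28800819, minus strand): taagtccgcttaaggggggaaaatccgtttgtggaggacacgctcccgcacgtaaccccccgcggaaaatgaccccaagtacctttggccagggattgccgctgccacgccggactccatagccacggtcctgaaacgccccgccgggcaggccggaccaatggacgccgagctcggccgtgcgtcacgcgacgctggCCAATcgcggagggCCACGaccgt
HYOU1 (chr11:119057206-119057455, minus strand): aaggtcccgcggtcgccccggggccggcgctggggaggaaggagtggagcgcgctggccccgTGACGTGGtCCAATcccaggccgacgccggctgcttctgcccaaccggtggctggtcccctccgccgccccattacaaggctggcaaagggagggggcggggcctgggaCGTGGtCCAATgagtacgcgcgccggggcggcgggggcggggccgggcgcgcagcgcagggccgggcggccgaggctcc
SDF2L1 (chr22:21642052-21642260, plus strand): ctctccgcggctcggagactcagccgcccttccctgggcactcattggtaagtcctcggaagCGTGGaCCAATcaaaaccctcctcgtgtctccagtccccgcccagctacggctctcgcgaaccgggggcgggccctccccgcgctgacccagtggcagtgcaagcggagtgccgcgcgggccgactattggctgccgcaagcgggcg

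Counted from the RefSeq start, the match begins 66 bases before it in HSPA5, 52 in XBP1 and 117 in HERPUD1. The table places the start of HERPUD1, CALR, XBP1 and SDF2L1 farther upstream than RefSeq does, so in their printed sequences the match lies nearer the end than these counts. In CALR, HYOU1 and SDF2L1 the letters run on the other strand. Of the 11 genes with an ERSE or ERSE-II, 8 were called lower and 3 not called, with a median log2 fold change of -0.39. Of 24 with a window and no exact match to either element, 5 were lower and 3 higher, with a median of 0.05. Copies with a changed fixed letter were not searched for, so these genes may still hold a variant element. The share called lower over all genes was 14.2%. Since the promoters are shown for their largest decreases, this division by element restates that choice and is a description only. The 3 with an element that were not called were HSP90B1, SDF2L1 and ERO1B, at log2 fold changes of -0.21, 0.14 and 0.15. Under TPM, CRELD2, PDIA6 and CANX lost their lower calls, which left 5 of the 11, and SDF2L1 passed as higher. A match is a stretch of letters, and no binding was measured.

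**Figure D2:**
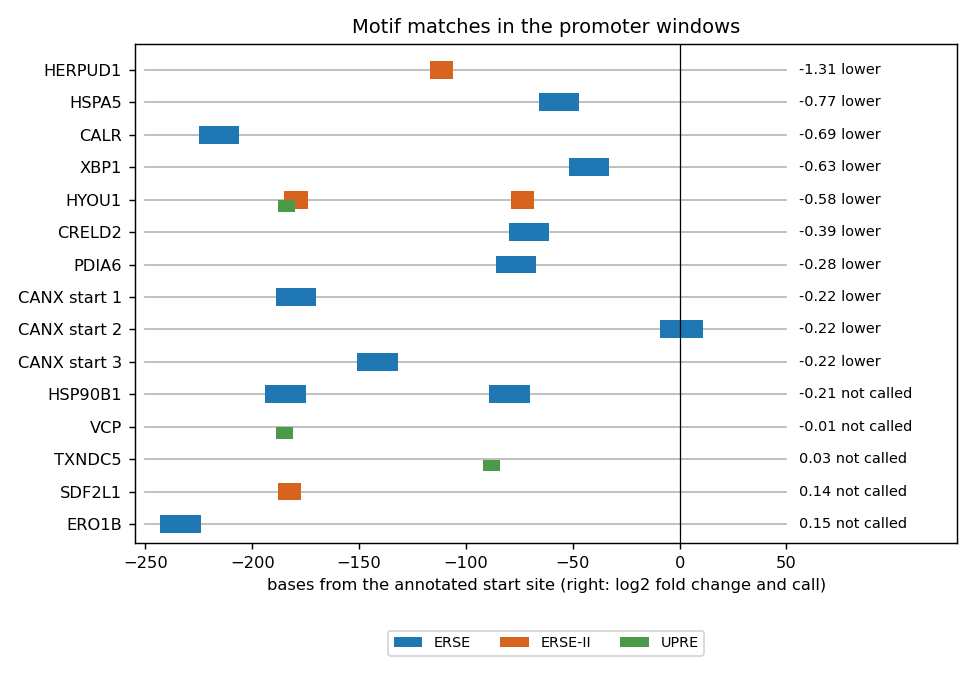
Positions of ERSE, ERSE-II and UPRE matches in the promoter windows of the members that hold one, in bases from the RefSeq start, ordered by log2 fold change (right). CANX has 3 annotated starts that share a single ERSE at chromosome 5, 179698778 to 179698796; the 8 genes at the top are called lower and the others are not called.

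Among the sensors, ERN1, which encodes the IRE1 kinase and nuclease (chromosome 17, 64039142 to 64130819), had 5.89, 6.86 and 7.01 FPKM in celastrol replicates 1 to 3 and 9.20, 8.997 and 8.72 in DMSO replicates 1 to 3. All celastrol libraries lay below all DMSO libraries, and the log2 fold change was -0.44 (SE 0.09, adjusted p = 0.00869), a call that TPM removed (adjusted p = 0.0929). XBP1, the factor whose mRNA IRE1 splices (chromosome 22, 28794555 to 28800597), had 33.1, 33.8 and 34.9 FPKM with celastrol and 53.7, 49.9 and 54.4 with DMSO. The groups did not overlap and the change was -0.63 (SE 0.07, adjusted p = 0.000718). A gene total cannot separate spliced from unspliced XBP1 mRNA. ATF6, the sensor that is cut to a transcription factor, averaged 16.6 ± 1.13 and 18.7 ± 1.2 FPKM, and its paralogue ATF6B 43.9 ± 1.29 and 50.2 ± 4.98 FPKM with celastrol and DMSO (SD, n = 3 each). Neither passed the test (adjusted p = 0.156 and 0.137), their groups overlapped, and under TPM both differences turned above 0. Without DMSO replicate 2, ATF6B passed as lower (-0.27, adjusted p from limma = 0.0250).

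HSPA5 encodes BiP, the main HSP70 of the ER lumen and a restraint on the sensors (chromosome 9, 125234853 to 125241330). It had 101, 102 and 113 FPKM in celastrol replicates 1 to 3 and 185, 172 and 182 in DMSO replicates 1 to 3, so every celastrol library lay far below every DMSO library. It was 1.71-fold lower, with a log2 fold change of -0.77 (SE 0.07, adjusted p = 0.000479). HYOU1, a large HSP70 relative that exchanges nucleotide on BiP, had 49.0, 48.6 and 47.5 FPKM with celastrol and 78.8, 63.8 and 74.5 with DMSO. The celastrol libraries were tightly grouped and all below DMSO (log2 fold change -0.58, SE 0.09, adjusted p = 0.00329). SIL1, the other nucleotide exchange factor of BiP, averaged 10.9 ± 0.786 against 10.4 ± 1.41 FPKM (SD, n = 3) with overlapping groups (adjusted p = 0.633). Exchange factors of the same chaperone thus gave values on both sides of 0, and the difference between them was not tested. HSP90B1, the ER HSP90 (GRP94), averaged 169.9 ± 8.76 against 196 ± 13.3 FPKM. Its celastrol libraries, at 162, 169 and 179, all lay below the DMSO libraries, at 182, 208 and 198, by a narrow margin, and the test was not passed (log2 fold change -0.21, adjusted p = 0.0796). It passed as lower without DMSO replicate 1 (adjusted p = 0.0421) and turned above 0 under TPM.

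Lectin chaperones hold glycoproteins while they fold. CALR, the soluble one (chromosome 19, 12938578 to 12944489), had 275, 255 and 269 FPKM with celastrol and 479, 385 and 431 with DMSO. It was the most abundant member with DMSO, and fell 1.62-fold with no overlap (log2 fold change -0.69, SE 0.09, adjusted p = 0.00185). CANX, its membrane-bound relative, had 188, 190.1 and 191 FPKM with celastrol and 208, 232 and 225 with DMSO. It was called lower at a smaller size (-0.22, adjusted p = 0.0404), a call lost in 12 of the 16 alternatives, among them TPM, where its difference turned to 0.02. UGGT1, which tags unfolded glycoproteins for another round with the lectins, averaged 18.6 ± 1.12 against 20.6 ± 0.563 FPKM (adjusted p = 0.162).

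SDF2L1, CRELD2 and MANF are small ER proteins that rise strongly under ER stress. SDF2L1, a partner of BiP cochaperones, had 339, 335 and 380.2 FPKM with celastrol and 366, 274 and 320.0 with DMSO. The groups overlapped, the change was 0.14 (SE 0.11, adjusted p = 0.371), and with celastrol it was the most abundant of the 38. It passed as higher under TPM, quantile normalization and limma-voom. CRELD2, a chaperone-like protein with EGF-type repeats, had 5.62, 5.74 and 6.09 FPKM with celastrol and 8.31, 6.87 and 7.79 with DMSO (log2 fold change -0.39, SE 0.09, adjusted p = 0.0168). MANF, a protein that binds BiP and can be secreted, averaged 15.3 ± 1.88 against 19.3 ± 1.01 FPKM (-0.34, adjusted p = 0.0375). All celastrol libraries were below all DMSO libraries for both. CRELD2 lost its call under TPM and without celastrol replicate 1 or 2 or DMSO replicate 3, and MANF in 8 alternatives, among them those of each of these libraries.

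Of the disulfide isomerases, P4HB, PDIA4 and PDIA6, which form and reshuffle disulfide bonds, fell by similar small amounts, with log2 fold changes of -0.25, -0.26 and -0.28 (adjusted p = 0.0436, 0.0152 and 0.0209). PDIA4 had 110.0, 108.9 and 109.3 FPKM with celastrol and 132, 127 and 134 with DMSO. P4HB had 151, 149.9 and 150.2 FPKM with celastrol and 195, 164 and 180.2 with DMSO. PDIA6 had 72.3, 70.6 and 70.8 FPKM with celastrol and 91.0, 80.5 and 88.0 with DMSO. For these 3 genes the groups did not overlap, the celastrol libraries varied less than the DMSO ones, and the calls were lost under TPM (log2 fold changes of -0.01, -0.02 and -0.04 for P4HB, PDIA4 and PDIA6) and limma-voom. Of the 16 alternatives, P4HB lost its call in 11, among them 5 of the 6 left-out libraries (all but DMSO replicate 2), and PDIA6 in 7, among them each left-out celastrol library and DMSO replicate 3. PDIA4 lost its call in 4, among them those without celastrol replicate 2 or DMSO replicate 3. PDIA3, the isomerase that works with the lectins, averaged 94.8 ± 1.43 against 106 ± 5.90 FPKM (adjusted p = 0.112). It passed as lower without DMSO replicate 1 (adjusted p = 0.0442) and turned above 0 under TPM. Its processed copy PDIA3P1 was listed at 4.72 and 4.43 FPKM, and the sources used here do not say how reads were split between such copies. PDIA5 averaged 8.04 ± 0.799 against 9.16 ± 1.51 FPKM and overlapped between groups (adjusted p = 0.350).

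ERO1A, an oxidase that recharges the isomerases, moved the other way. It had 11.5, 11.6 and 11.7 FPKM with celastrol and 8.25, 10.6 and 8.96 with DMSO, with no overlap (log2 fold change 0.33, SE 0.10, adjusted p = 0.0411). That call was lost with no filter on low values, under quantile normalization and without 5 of the 6 libraries in turn, all but DMSO replicate 2. ERO1B, its paralogue, averaged 2.58 ± 0.198 against 2.35 ± 0.534 FPKM (adjusted p = 0.532). TXNDC5, a thioredoxin-type isomerase, averaged 1.74 ± 0.161 against 1.71 ± 0.229 FPKM (adjusted p = 0.915). Its level is uncertain, since 60.6% of its exonic bases are also annotated to the read-through gene BLOC1S5-TXNDC5, listed at 0.

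In ERAD, HERPUD1, a membrane scaffold of the HRD1 ligase complex (chromosome 16, 56932048 to 56944863), had the largest decrease of the 37 tested members. It had 8.04, 7.93 and 9.05 FPKM with celastrol and 21.6, 20.3 and 20.7 with DMSO, a 2.50-fold difference with every celastrol library under 10 FPKM (log2 fold change -1.31, SE 0.08, adjusted p = 8.91e-05). SEL1L, the adaptor of the same ligase (chromosome 14, 81471549 to 81533861), had 9.40, 11.1 and 9.85 FPKM with celastrol and 14.2, 14.3 and 14.5 with DMSO. It fell by 0.50 on the log2 scale (SE 0.08, adjusted p = 0.00417), and its groups stood apart. SYVN1, the HRD1 ligase itself, did not pass, at 21.3 ± 0.572 against 19.8 ± 1.84 FPKM (log2 fold change 0.11, adjusted p = 0.363). Its exons share bases with FAU on the same strand, which was listed at 211 and 205 FPKM, so its own level is uncertain.

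EDEM1, EDEM2 and EDEM3, which mark misfolded glycoproteins by trimming mannose, had log2 fold changes of 0.13, 0.10 and 0.16 (adjusted p = 0.289, 0.456 and 0.200). Under TPM all 3 passed as higher, at 0.37, 0.34 and 0.40 (adjusted p = 0.00978, 0.0130 and 0.0135), and EDEM1 and EDEM3 also passed under limma-voom. The mannose-reading lectin OS9 averaged 45.9 ± 2.00 against 45.5 ± 4.93 FPKM (adjusted p = 0.907), and passed as higher under TPM (0.26, adjusted p = 0.0319). The ATPase VCP, which pulls proteins out of the membrane, averaged 76.7 ± 2.23 against 77.4 ± 5.00 FPKM (adjusted p = 0.912); its difference, -0.01, turned above 0 under 4 scalings, and under TPM it passed as higher (0.23, adjusted p = 0.0183).

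Of the derlin and selenoprotein genes, DERL1 and SELENOS passed as higher. DERL1, a derlin of the export channel, had 10.3, 9.49 and 11.0 FPKM with celastrol and 7.64, 8.37 and 7.82 with DMSO (log2 fold change 0.37, SE 0.08, adjusted p = 0.0144). SELENOS, a selenoprotein that ties VCP to the derlins, had 12.6, 13.7 and 16.3 FPKM with celastrol and 10.1, 10.5 and 10.3 with DMSO (0.45, SE 0.10, adjusted p = 0.0137). Groups did not overlap for either gene, and both calls were lost without DMSO replicate 3 (adjusted p = 0.0601 and 0.0512). SELENOK, another selenoprotein of the complex, had 10.9, 10.5 and 13.1 FPKM with celastrol and 9.34, 8.85 and 9.82 with DMSO. It did not pass (0.29, adjusted p = 0.0610), although its groups were apart, and it passed in 6 alternatives. DERL2 averaged 3.48 ± 0.443 against 2.80 ± 0.394 FPKM with overlapping groups (adjusted p = 0.140), and passed as higher under TPM and limma-voom. DERL3 averaged 0.527 ± 0.191 against 0.846 ± 0.160 FPKM, under the minimum mean of 1 FPKM, and was not tested. It had 20 to 58 reads per library, and 77% of its exonic bases lie opposite SMARCB1 exons, so without a known strand setting its reads cannot be assigned. Every other member was at 1.46 FPKM or more in every library.

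In the translocon, SEC61B, the small beta subunit of the channel (chromosome 9, 99222064 to 99230615), had 41.9, 43.4 and 52.3 FPKM with celastrol and 35.6, 30.02 and 33.9 with DMSO. It rose with no overlap (log2 fold change 0.46, SE 0.11, adjusted p = 0.0151). SEC61A1, the pore, had 66.9, 72.3 and 75.6 FPKM with celastrol and 62.5, 55.4 and 64.8 with DMSO; the groups were narrowly apart and the test was not passed (0.23, adjusted p = 0.0722). SEC61G, the gamma subunit, had 26.6, 32.7 and 36.9 FPKM with celastrol and 29.5, 21.9 and 25.1 with DMSO, which overlap (0.33, adjusted p = 0.13). SEC61A1 passed as higher under TPM, quantile normalization, limma-voom and the scalings to listed or non-mitochondrial reads, and SEC61G under TPM and limma-voom. In all 3 genes celastrol replicate 3 was the highest celastrol library, as it was for 23 of the 38 members.

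**Figure D3:**
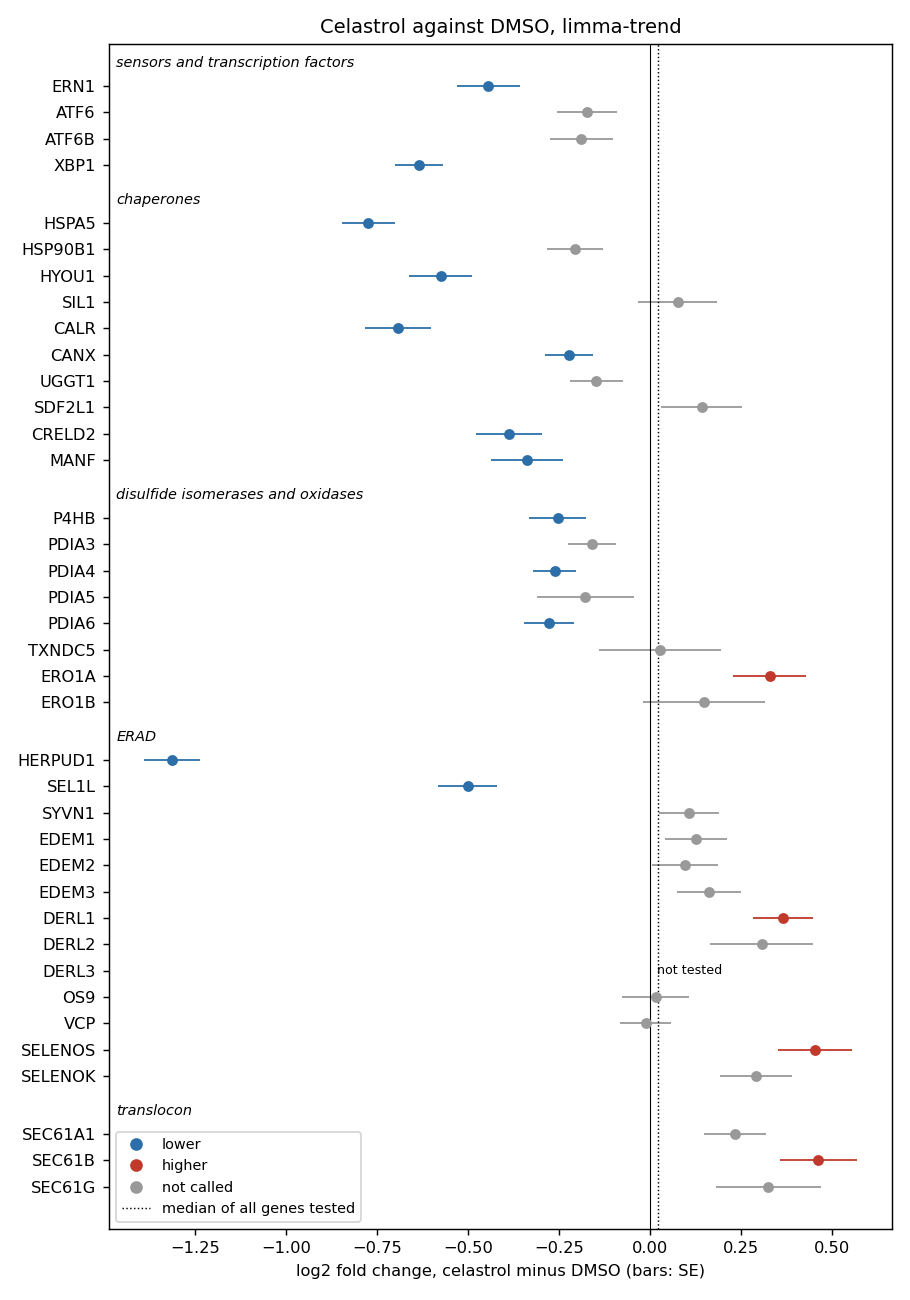
log2 fold change of each member, celastrol minus DMSO, with its SE from limma; colours give the call at an adjusted p under 0.05. HERPUD1 lies farthest left at -1.31 and the translocon genes lie right of 0; the sensors lie left of 0, though ATF6 and ATF6B move to the right of it under TPM.

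By role, the median log2 fold changes were -0.32 for the 4 sensors and factors (2 lower), -0.28 for the 10 chaperones (6 lower), -0.17 for the 8 isomerases and oxidases (3 lower, 1 higher), 0.12 for the 12 tested ERAD genes (2 lower, 2 higher) and 0.33 for the 3 translocon genes (1 higher). The background was 14.2% lower and 15.3% higher, near the ERAD counts on the deposited scale. Under limma-voom 6 of the 12 ERAD genes were higher, against 28.8% of all genes, and under TPM 10 of 12, against 41.5%; 2 were lower under each. Celastrol and DMSO libraries did not overlap for 23 of the 37 tested members, 16 with celastrol below and 7 above. The untested DERL3 also had all celastrol libraries below. Over all genes tested, 47.3% did not overlap, with celastrol below for 22% and above for 25.3%. Of the 13 lower members, 4 were at least 1.5-fold lower in mean FPKM, namely XBP1, HSPA5, CALR and HERPUD1, and the 4 higher ones were under 1.5-fold higher, with SEC61B at 1.38-fold. Among all genes, 6.26% were called lower by 1.5-fold or more and 5.31% higher.

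**Figure D4:**
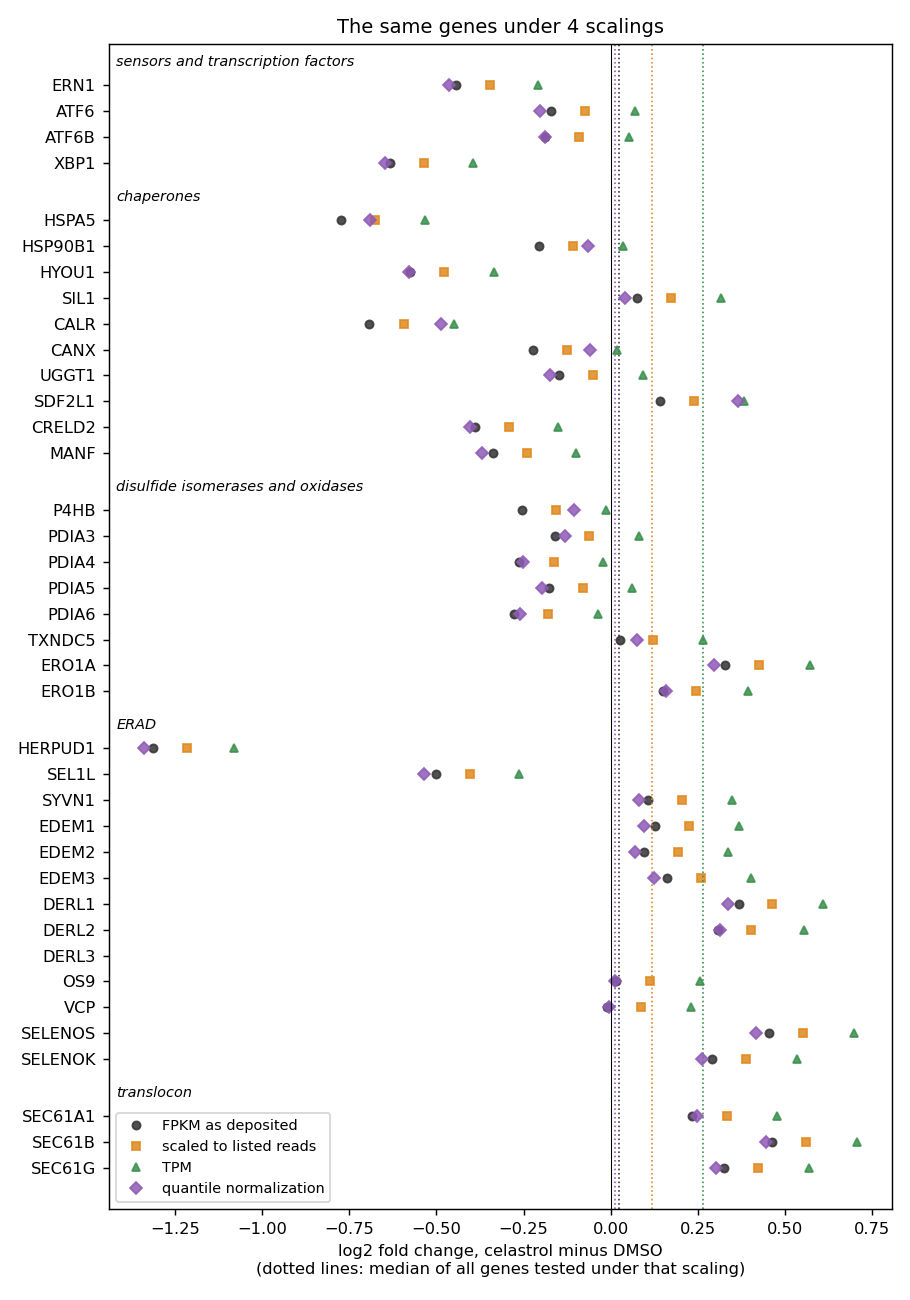
log2 fold change of each tested member under 4 scalings (symbols), with dotted lines at the median of all genes for each. TPM moves the points to the right together with that median, from 0.02 to 0.26, and XBP1, HSPA5, HYOU1, CALR, HERPUD1 and SEL1L stay left of 0 under all 4.

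The rest of the pathway was read, on the deposited FPKM scale, from 7 further lists with 131 genes, of which 120 were tested. There, 31 genes were higher (25.8%) and 13 lower (10.8%), beside 15.3% and 14.2% over all genes, and the median was 0.10. Celastrol and DMSO did not overlap for 44 with celastrol above and 17 with celastrol below, beside 25.3% and 22% of all genes. By list, the shares called higher ran from 11.1% (J-domain cochaperones) to 41.2% (N-glycan genes), and the shares for the other signalling, thiol and ERAD lists, at 17.6%, 18.2% and 18.5%, lay near the background. The share called lower was 35.3% in the signalling list and at most 9.09% in the other 6.

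Signalling genes of the response that are not members had 6 lower and 3 higher of 17 tested. The lower ones include genes that can act downstream of PERK. ATF4 was at 112 ± 9.97 against 285 ± 13.1 FPKM and DDIT3 (CHOP) at 17.7 ± 6.01 against 59.5 ± 1.93. The pseudokinase TRIB3 was at 36.1 ± 1.80 against 93.0 ± 12.7 (SD, n = 3). PERK itself (gene EIF2AK3), named after its values were seen, was not called. It averaged 3.60 ± 0.314 against 3.58 ± 0.0341 FPKM (adjusted p from limma = 0.976). Whether PERK had a part in the decreases was not tested. The adjusted p-values from limma were 9.86e-05 for ATF4, 0.000944 for DDIT3 and 0.000222 for TRIB3. The higher ones were the ER membrane factors CREB3 (log2 fold change 0.54) and CREB3L1 (0.27) and NFYA (0.44), a subunit of the factor that binds CCAAT boxes. The subunits of that factor parted: NFYC was lower (-0.30, adjusted p from limma = 0.0125) and NFYB was not called (0.17, adjusted p = 0.177), both named after their values were seen. ER J-domain cochaperones, which drive the ATPase of BiP, had 1 higher (DNAJC1, 0.36), and the other 8 of 9 were not called.

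Genes of entry and glycan transfer were mostly higher where they passed. Of 22 other translocation genes, 8 passed as higher and 2 as lower, with the channel-associated TRAM1 at 0.80, SRP14 of the signal recognition particle at 0.54 and SEC62 at 0.51, and with SEC11A at -0.37 and SSR2 at -0.22, which turned to 0.02 under TPM. N-glycan genes had 7 higher and 1 lower of 17: the oligosaccharyltransferase subunits DAD1 (0.82), STT3B (0.34) and OST4 (0.30) rose, and PRKCSH, the beta subunit of glucosidase II, fell by 0.35 on the log2 scale. Prolyl isomerases and calcium handling genes had 5 higher and 1 lower of 17, among them FKBP14 at 0.60, the calcium channel ITPR2 at 0.50 and TMBIM6 at 0.34, with the calcium-binding RCN2 at -0.43. The list of other thiol oxidoreductases and related proteins had 2 higher and 1 lower of 11. PRDX4 (0.41) and TMX2 (0.33) rose, and ERP29 fell from 71.5 ± 8.76 to 39.3 ± 2.41 FPKM (SD, n = 3). Other ERAD genes had 5 higher and 2 lower of 27: the glycoprotein F-box genes parted, with FBXO2 at 1.98 ± 0.216 against 0.623 ± 0.0433 FPKM and FBXO6 at 13.7 ± 0.426 against 19.6 ± 2.94 (SD, n = 3). JKAMP (0.64) and FAM8A1 (0.56), membrane genes of the ligase complexes, rose, and ERLIN1 was at -0.32.

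**Figure D5:**
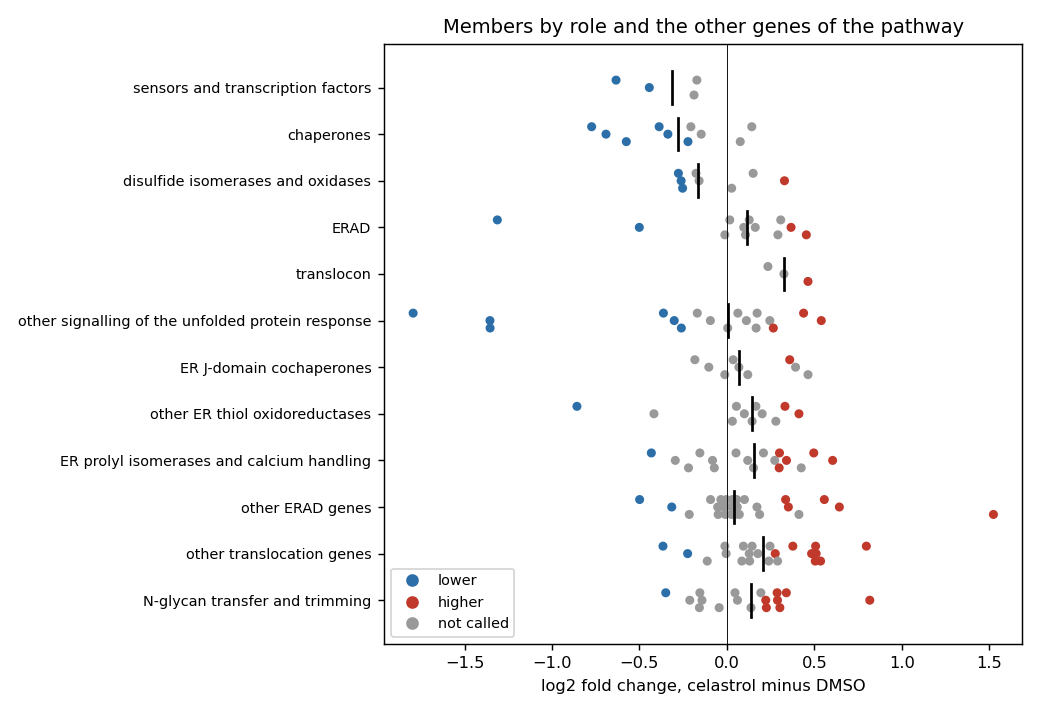
log2 fold change of every tested gene, members by role (top 5 rows) and the 7 other lists; colours give the call and bars the median of each list. The translocation and N-glycan rows hold 8 and 7 higher genes, and the largest decreases outside the members are DDIT3, ATF4 and TRIB3.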

How the data were processed

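Values were the FPKM deposited by the authors for 58735 genes in 6 libraries, made from reads aligned with HISAT2 2.0.5 and counted with featureCounts 1.5.0-p3, per the submitters' processing notes. The sources used here give neither the strand setting nor the divisor. Gene positions in the table equal GENCODE release 29. FPKM times gene length fell in whole steps, so reads were recovered; limma-voom on them was an alternative.

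Tests used limma-trend (limma 3.58.1, R 4.3.3) on log2(FPKM + 0.1) for genes with a mean of at least 1 FPKM, with Benjamini-Hochberg adjustment over 12685 genes and a threshold of 0.05. The pseudocount makes fold changes of low genes smaller. The code was tested on simulated data. Named were all members, up to 3 called genes per direction of each other list, and marker genes; members and lists were chosen with earlier results of these data known. Alternatives changed pseudocount, filter, scaling, test, block or left out a library. Protein sequences were not used here.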

Additional observations from a re-analysis of the deposited data

How the results depend on the processing

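Pseudocounts of 1 or 0.01 moved no count past 1.5 times. The number of ER genes called higher, 4 with deposited FPKM, became 16 under TPM and 11 under limma-voom, and 1 to 4 when a library was left out (1 without DMSO replicate 3). The number called lower, 13, became 6 under TPM and 8 under limma-voom, and 7 to 13 with a library left out. Over all genes, 1947 higher became 5266 under TPM, 3024 scaled to listed reads, 3650 under limma-voom and 1119 to 1948 with a library left out (1119 without celastrol replicate 2, 1211 without celastrol replicate 3, 1140 without DMSO replicate 3). Over all genes, 1797 lower became 813 under TPM and 1003 to 1766 with a library left out (1137 without celastrol replicate 2, 1003 without DMSO replicate 3). Under TPM these differences turned above 0: ATF6 0.068, ATF6B 0.053, HSP90B1 0.035, CANX 0.018, UGGT1 0.093, PDIA3 0.082, PDIA5 0.062, VCP 0.23 and SSR2 0.016. VCP also did at 0.086 scaled to listed reads, 0.027 scaled to non-mitochondrial reads and 0.086 under limma-voom. With a library left out, VCP ranged from -0.055 to 0.037 (above 0 without celastrol replicate 2 or DMSO replicate 1), SIL1 from -0.0069 to 0.18 (below 0 without DMSO replicate 2), TXNDC5 from -0.079 to 0.10 (below 0 without celastrol replicate 2 or DMSO replicate 2) and OS9 from -0.076 to 0.074 (below 0 without celastrol replicate 3 or DMSO replicate 2). TPM, listed reads and non-mitochondrial reads each set a single divisor per library, and limma-voom used the listed reads as its divisor. These scalings therefore shift all genes by construction. For the left-out libraries the cause was not tested. With the replicate number as a block, 5 ER genes were higher and 11 lower (1776 and 1617 over all genes). Deviations of same-numbered libraries correlated at -0.016, -0.033 and 0.034 over 12685 genes, and those of differently numbered ones at -0.028 to 0.041. No pairing by number showed in the values. Correlations cannot tell whether same-numbered libraries were handled together, and the labels do not say. Depth limited DERL3, with 20 to 58 reads.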

Other observations

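Outside the members, 15 tested genes had an ERSE or ERSE-II in their promoter window. Of these, 2 were lower (limma, adjusted p) with celastrol: EIF2A, a translation initiation factor, at -0.64 on the log2 scale (adjusted p = 0.00451), and FICD, the enzyme that AMPylates BiP, at -0.43 (adjusted p = 0.0243). GYS1, muscle glycogen synthase, was higher at 0.42 (adjusted p = 0.00722), and the rest of the 15 were not called. Over all genes tested, 14.2% were called lower and 15.3% higher, so 2 lower of 15 is near the background. The median over the 15 was 0.05, against -0.39 over the 11 members with such an element, and the difference was not tested. Since both strands were searched, genes with nearby starts on opposite strands can share an element. ALG12, among the 15, overlaps the member CRELD2 on the opposite strand, and shared elements were not counted apart. The genes outside the members were named here after their values were seen.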
